A study of Homo sapiens with 6 samples.

Results

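The ligands and receptors of the epidermal growth factor (EGF) receptor system were examined in HK2 cells, an immortalised line of human proximal tubular epithelial cells. The 10 genes were taken from 38100 in the deposited tables by their symbols. They were 7 ligand genes (HBEGF, AREG, EREG, TGFA, BTC, EGF and EPGN) and 3 receptor genes (EGFR, ERBB2 and ERBB3). The family was selected on the difference of HBEGF between the groups, so the HBEGF values below are a description without a test. The 6 samples of the series formed 2 groups of 3. AdCtrl cells carried an empty adenovirus vector, and AdSIRT4 cells carried an adenovirus for SIRT4, a mitochondrial sirtuin. All cells were labelled wild type and were stimulated with TGF-β1, so no sample shows the state before stimulation. The promoter that drives SIRT4 and the dose and time of TGF-β1 for these samples are not given in the sources used here. Single values of a group follow the order of replicates 1, 2 and 3 throughout. The study defines n in vitro as technical replicates, so SDs and p-values may describe technical spread alone. In such bulk samples fewer cells with a transcript and less of it per cell cannot be told apart.

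Ligands of this family are made as membrane-anchored precursors, and metalloproteases such as ADAM17 and ADAM10 release the soluble factor. The ligand binds EGFR, which pairs with itself or with ERBB2 or ERBB3 and signals through RAS and ERK, PI3K and AKT, and STAT factors. ERBB2 has no known ligand of its own, and ERBB3 binds neuregulins and has a weak kinase. In the kidney, tubular cells carry EGFR, EGF is made in the distal nephron, and HB-EGF, amphiregulin and TGF-α are known from the injured tubule and from models of fibrosis.

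Library totals ran from 41537353 to 85684748 counts. SIRT4 had 31, 47 and 57 counts in the AdCtrl samples, against 1996, 7995 and 6827 in the AdSIRT4 samples (log2 fold change 6.36, standard error 0.357, adjusted p = 0.00801, edgeR), a call that was lost without AdCtrl replicate 1, 2 or 3 (adjusted p = 0.0559, 0.203 and 0.186). Of 9 genes of kidney tubular epithelium, 7 reached a mean of 1 FPKM, the exceptions being PAX2 and CDH1. Of 8 genes of the differentiated proximal tubule, GGT1 alone did so, and LRP2, CUBN, ANPEP, AQP1, SLC34A1, SLC22A6 and SLC5A2 lay below 1 FPKM. No podocyte, endothelial or distal nephron marker reached 1 FPKM. Of 5 fibroblast markers COL1A1 and LUM did (COL3A1 listed at 0), as did CD14 and CD68 of 5 leukocyte markers (CD3E listed at 0). Their summed FPKM lay at 8.91 to 9.93 in AdCtrl and 8.66 to 9.52 in AdSIRT4 samples for fibroblasts, and at 18.6 to 20.8 and 20.2 to 23.8 for leukocytes. AdSIRT4 replicate 1 stood apart: its deviation from the other AdSIRT4 replicates was related to gene length (Spearman rho -0.59 over 17558 genes, which are not independent), while among the AdCtrl samples rho lay between -0.18 and 0.17. Values without that library are given for part of the results only, and the part of this trend in the results was not tested.

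HBEGF encodes heparin-binding EGF-like growth factor, which binds EGFR and ERBB4. The gene (Entrez 1839) lies on the minus strand of chromosome 5 of GRCh38, chr5:140332843-140346603. Normalised counts (CPM, which are counts relative to the library size after TMM scaling) were 14.8, 14.6 and 16.5 in the AdCtrl samples, against 30.3, 25.98 and 24.4 in the AdSIRT4 samples. The lowest AdSIRT4 sample was above the highest AdCtrl sample. The means were 15.3 ± 1.04 and 26.9 ± 3.05 CPM (SD, n = 3), a 1.76-fold higher level in AdSIRT4 cells. On the log2 scale the difference was 0.81 (standard error 0.118), and it was 0.71 without AdSIRT4 replicate 1. Per length, the FPKM of HBEGF was 5.73 ± 0.575 in AdCtrl and 9.79 ± 0.610 in AdSIRT4 cells (SD, n = 3).

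**Figure D1:**
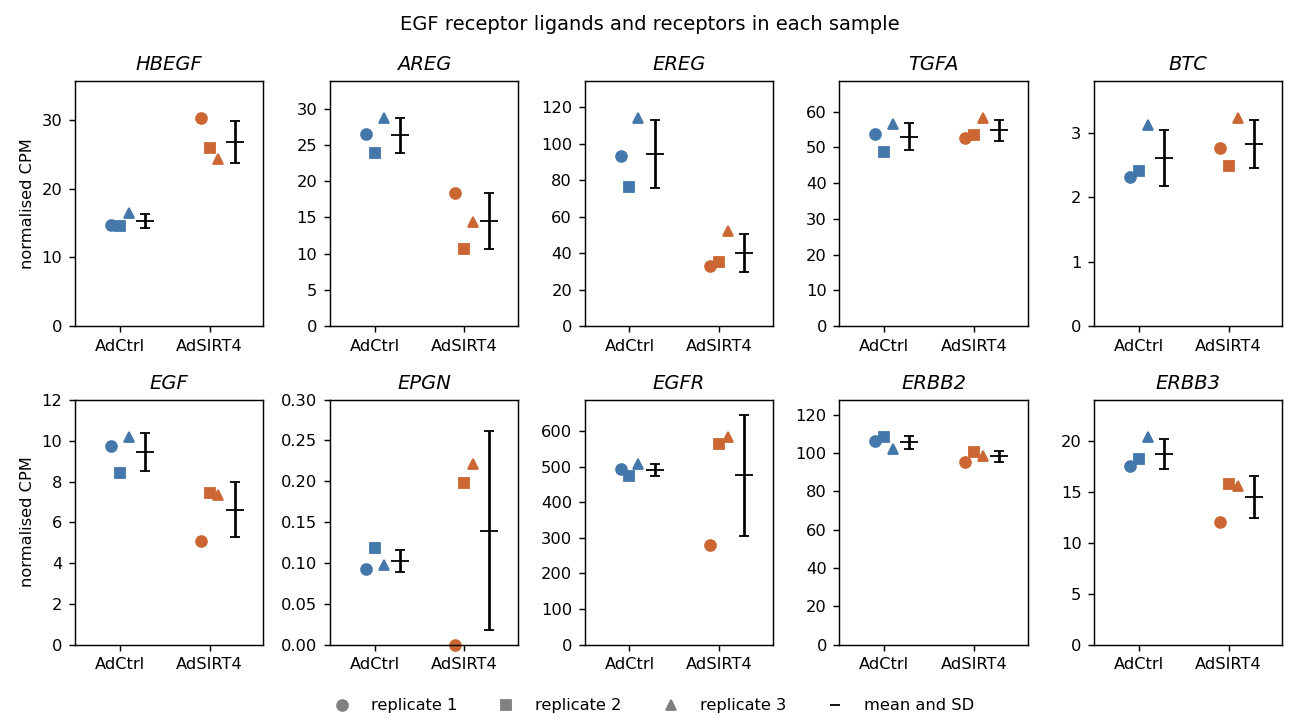
CPM (linear axes from 0, one panel per gene) in the 3 AdCtrl and 3 AdSIRT4 samples, with symbols for the replicate number and bars for mean and SD. HBEGF is higher in all AdSIRT4 samples (24.4 to 30.3 CPM) than in AdCtrl samples (14.6 to 16.5 CPM), AREG and EREG are lower, and EGFR is split by AdSIRT4 replicate 1 (279 CPM).

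AREG and EREG, which encode amphiregulin and epiregulin, stood in the opposite direction to HBEGF. EREG had 93.3, 76.4 and 114 CPM in the AdCtrl samples, against 33.1, 35.2 and 52.0 in the AdSIRT4 samples. Its means were 94.5 ± 18.8 and 40.1 ± 10.4 CPM (SD, n = 3), so the AdSIRT4 level was 42.4% of the AdCtrl level. This was the largest difference in size among the members tested (log2 fold change -1.24, standard error 0.219). AREG had 26.6, 23.8 and 28.7 CPM in the AdCtrl samples, against 18.4, 10.7 and 14.3 in the AdSIRT4 samples. The means of AREG were 26.4 ± 2.43 and 14.5 ± 3.87 CPM (SD, n = 3), a difference of -0.87 on the log2 scale (standard error 0.1996). For both genes every AdSIRT4 sample lay below every one from AdCtrl cells (exact permutation test, two-sided, p = 0.1 for each). This is the smallest p that 3 samples against 3 allow when the samples are not paired, as in this test.

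Neither difference passed the adjusted threshold of 0.05 over the 17720 genes tested in edgeR's quasi-likelihood test, where 0.0113% of all genes did (EREG adjusted p = 0.379, AREG adjusted p = 0.494). Of the 8 members other than HBEGF that could be tested, 0 passed it, and 4 (AREG, EREG, EGF and ERBB3) had an unadjusted p under 0.05 in edgeR, all lower in AdSIRT4 cells, where 3.5% of all genes were lower at that level. None of the 8 was higher at that level, where 4.43% of all genes were. Groups did not overlap for 5 of the 8, all lower in AdSIRT4 cells, against 9.77% of all genes tested, and 0 were higher without overlap, against 9.66%. The members were chosen with earlier results of these data known, so these counts and the p-values of the members are a description. With DESeq2 in place of edgeR, AREG (adjusted p = 0.0152) and EREG (adjusted p = 9.31e-05) passed, with 1.16% of all genes called. Without AdSIRT4 replicate 1 edgeR called AREG (log2 fold change -1.08, adjusted p = 0.00236) and not EREG (-1.12, adjusted p = 0.134), with 6.71% of all genes called.

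**Figure D2:**
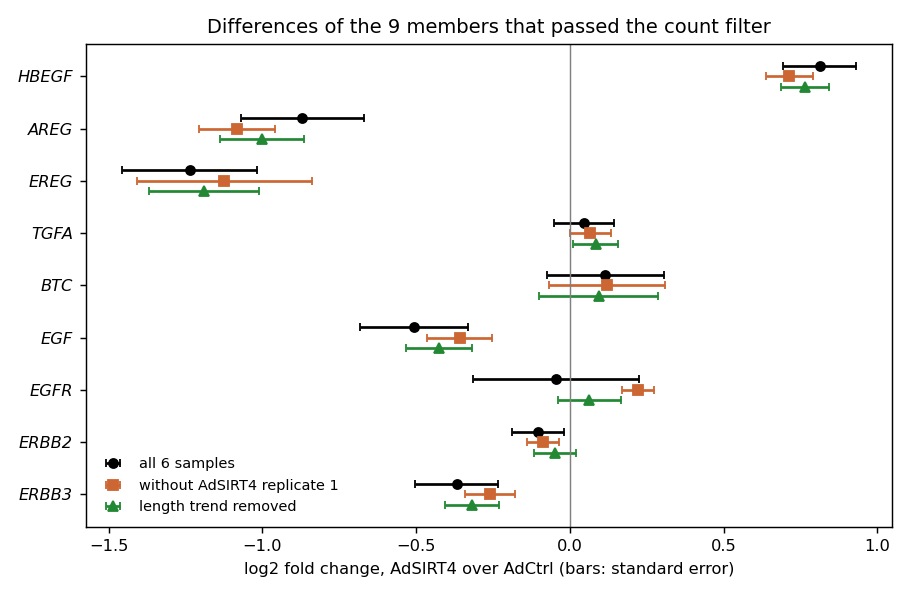
Log2 fold change of AdSIRT4 over AdCtrl for the 9 members that passed the count filter, with bars for the standard error, from all 6 samples, without AdSIRT4 replicate 1 and after removal of the trend on length. HBEGF stays right of 0 and AREG and EREG left of 0 in the 3 fits shown, while EGFR moves from -0.05 to 0.22 when replicate 1 is left out.

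The sequences before the start sites of the gene on one side and the pair on the other are shown because AREG and EREG were lower together while HBEGF was higher. They are the 250 bases upstream of the RefSeq start (GRCh38.p14), which lie at chr5:140346604-140346853 on the minus strand for HBEGF, at chr4:74444886-74445135 on the plus strand for AREG and at chr4:74364895-74365144 on the plus strand for EREG. Capitals mark matches, on either strand, to 6 motifs that were searched: the cyclic AMP response element (CRE) TGACGTCA, the AP-1 site TGANTCA, the TATA box TATAAA, the GC box GGGCGG, the E-box CACGTG and the CCAAT box CCAAT.
HBEGF: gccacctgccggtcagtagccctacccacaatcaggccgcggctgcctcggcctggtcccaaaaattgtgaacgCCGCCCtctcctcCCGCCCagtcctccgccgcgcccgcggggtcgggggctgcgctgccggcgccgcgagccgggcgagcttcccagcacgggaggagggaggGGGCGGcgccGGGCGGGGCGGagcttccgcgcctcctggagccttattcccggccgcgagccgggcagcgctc
AREG: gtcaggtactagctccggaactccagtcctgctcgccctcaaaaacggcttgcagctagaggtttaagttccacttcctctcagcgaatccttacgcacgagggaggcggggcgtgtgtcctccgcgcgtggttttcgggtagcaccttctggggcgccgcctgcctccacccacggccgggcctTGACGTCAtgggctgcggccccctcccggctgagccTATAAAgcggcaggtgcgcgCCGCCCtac
EREG: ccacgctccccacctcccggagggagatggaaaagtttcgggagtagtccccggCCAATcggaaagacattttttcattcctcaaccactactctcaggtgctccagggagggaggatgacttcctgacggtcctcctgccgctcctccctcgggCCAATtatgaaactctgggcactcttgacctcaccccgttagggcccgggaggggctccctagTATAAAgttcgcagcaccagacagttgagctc

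The HBEGF window was 76.4% G and C and held 5 GC boxes, of which the last pair overlaps by 1 base, and no other motif of the 6. The AREG window (65.2% G and C) held a CRE that begins 65 bases before the start, a TATA box 29 bases before it and 1 GC box. The EREG window (58% G and C) held a TATA box 32 bases before the start and 2 CCAAT boxes. A TATA box was present in 11.1% of 27305 RefSeq windows of this length and in 3 of the 9 members with a window (AREG, EREG and EPGN). A CRE was present in 1.77% of all windows and in AREG alone of the members. AP-1 sites (6.60% of windows) were found in EGF and ERBB2, GC boxes (42.3%) in 4 members, CCAAT boxes (33.04%) in 4 members and E-boxes (6.49%) in 0 members. These matches describe letters in the window and show no binding.

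EREG and AREG are neighbours on chromosome 4. EREG (Entrez 2069) lies at chr4:74365145-74388749 and AREG (Entrez 374) at chr4:74445136-74455005, both on the plus strand and 56386 bases apart. EPGN (Entrez 255324, chr4:74308470-74316789) lies before them and BTC (Entrez 685, chr4:74744759-74794523, minus strand) after them, and these 4 ligand genes span 486054 bases with 2 long noncoding genes, which overlap each other, between AREG and BTC. The values of EREG and AREG were lower in AdSIRT4 cells, and those of BTC were not. BTC, which encodes betacellulin, had 2.31, 2.40 and 3.11 CPM in the AdCtrl samples, against 2.77, 2.48 and 3.22 in the AdSIRT4 samples, and its groups overlapped (log2 fold change 0.11, standard error 0.190, adjusted p = 0.854 from edgeR). EPGN, the gene of epigen, had 5 counts in each AdCtrl sample and 0, 17 and 18 counts in AdSIRT4 replicates 1, 2 and 3, too few for the test. The count of 0 in replicate 1 allows up to 3 counts, or 0.0722 CPM of that library's total. The noncoding genes LOC107986229 and LOC124900716 had log2 fold changes of -0.15 and 0.61 at means of 0.0765 and 0.130 FPKM, and neither passed the adjusted threshold in edgeR (adjusted p of 0.904 and 0.702).

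TGFA, which encodes TGF-α, had the smallest log2 fold change in size of the ligands tested. The gene (Entrez 7039) lies on the minus strand at chr2:70447284-70553826. It had 53.8, 48.8 and 56.5 CPM in the AdCtrl samples, against 52.8, 53.4 and 58.1 in the AdSIRT4 samples. The groups overlapped, and the difference was 0.05 on the log2 scale (standard error 0.0974, adjusted p = 0.882, edgeR). EGF itself (Entrez 1950, chr4:109912883-110013766, plus strand) had 9.75, 8.43 and 10.2 CPM in the AdCtrl samples, against 5.08, 7.46 and 7.36 in the AdSIRT4 samples. All AdSIRT4 samples of EGF were below all AdCtrl samples (exact permutation test, p = 0.1), with a difference of -0.51 on the log2 scale (standard error 0.175) that did not pass in edgeR (adjusted p = 0.587). Without AdSIRT4 replicate 1, the lowest sample, the log2 fold change of EGF was -0.36 (adjusted p = 0.0657, edgeR).

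Compared per length, the make-up of the ligand transcripts differed between the groups. The summed FPKM of the 7 ligands was 56.4 ± 8.61 in AdCtrl and 40.7 ± 3.48 in AdSIRT4 cells (SD, n = 3). EREG took 31.8%, 29.4% and 34.5% of this sum in the AdCtrl samples, against 14.4%, 17.9% and 22.6% in the AdSIRT4 samples. The share of HBEGF was 9.86%, 11.03% and 9.78% in the AdCtrl samples, against 25.9%, 25.97% and 20.8% in the AdSIRT4 samples. The share of AREG was 33.7% ± 0.963 and 24.7% ± 4.98, and that of TGFA 20.3% ± 0.972 and 28.2% ± 2.36 (SD, n = 3). A share of TGFA can be higher while its own level is not, since the shares add up to a fixed sum. The ratio of HBEGF to the sum of AREG and EREG in FPKM was 0.150, 0.173 and 0.146 in the AdCtrl samples, against 0.580, 0.677 and 0.452 in the AdSIRT4 samples. HBEGF chose the family, so its share and this ratio carry no test. AdSIRT4 replicate 1 had the highest ratio of AREG to EREG, 2.09, where the other 5 samples lay between 0.945 and 1.17.

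**Figure D3:**
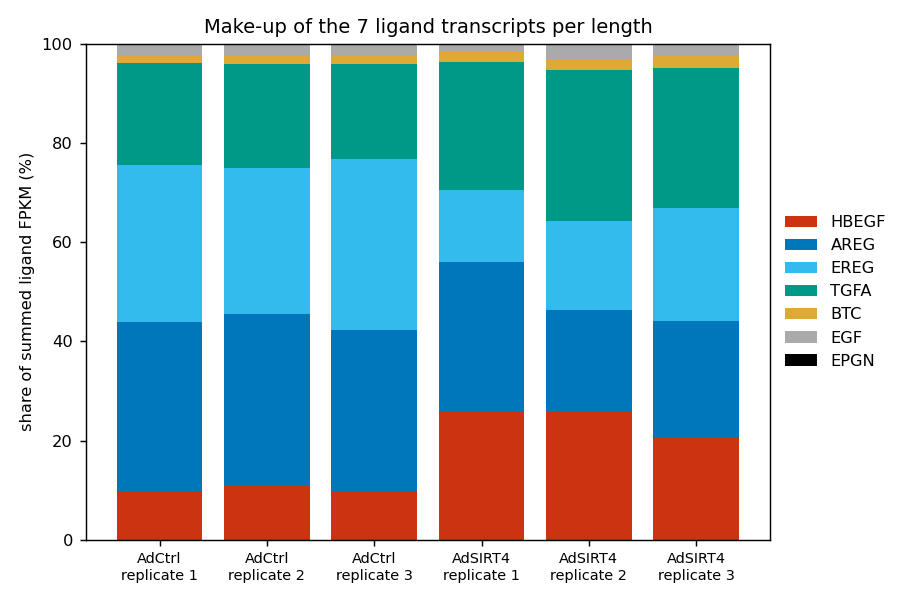
Share of each ligand in the summed FPKM of the 7 ligands (percent, stacked from 0 to 100) for each sample. HBEGF takes 9.78% to 11.03% in AdCtrl samples and 20.8% to 25.97% in AdSIRT4 samples, and EPGN is too small to be seen.

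EGFR (Entrez 1956, chr7:55019017-55211628, plus strand) was the most abundant member per length in both groups. It had 493, 473 and 507 CPM in the AdCtrl samples, against 279, 565 and 584 in the AdSIRT4 samples. AdSIRT4 replicate 1 lay below every AdCtrl sample and the other AdSIRT4 replicates lay above every one. With all samples the difference of EGFR on the log2 scale was -0.05 (standard error 0.270, adjusted p = 0.957, edgeR). Without replicate 1 its sign turned to 0.22 (standard error 0.0521, adjusted p = 0.0304, edgeR), and with the length trend removed it was 0.06 (adjusted p = 0.801, edgeR). The antisense gene EGFR-AS1 had between 0.0369% and 0.199% of the EGFR counts, and without a stated strand setting the reads of the pair cannot be told apart.

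The partner receptors were lower in AdSIRT4 cells without passing the adjusted threshold. ERBB3 (Entrez 2065, chr12:56080108-56103505, plus strand) had 17.6, 18.3 and 20.4 CPM in the AdCtrl samples, against 12.1, 15.8 and 15.6 in the AdSIRT4 samples. The difference of ERBB3 was -0.37 on the log2 scale (standard error 0.135, adjusted p = 0.607, edgeR) and -0.26 without AdSIRT4 replicate 1. ERBB2 (Entrez 2064, chr17:39688094-39728658, plus strand) had 106, 108 and 102 CPM in the AdCtrl samples, against 95.4, 100.7 and 98.5 in the AdSIRT4 samples. The groups did not overlap for either gene (exact permutation test, p = 0.1 for each), although the log2 fold change of ERBB2 was -0.10 with a standard error of 0.0845 (adjusted p = 0.761, edgeR). ERBB4, the remaining receptor of the family, had between 4 and 18 counts per sample and was not tested. EGFR made up 64.3% ± 1.55 of the summed FPKM of the 4 receptors in AdCtrl and 64.0% ± 8.52 in AdSIRT4 cells (SD, n = 3; two-sided exact permutation test, p = 1). The AdSIRT4 values were 54.2%, 68.6% and 69.2% in replicates 1, 2 and 3.

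In order of mean FPKM, AdCtrl cells had EGFR (43.0), ERBB2 (20.3), AREG (18.9), EREG (18.1), TGFA (11.4), HBEGF (5.73), ERBB3 (3.57), EGF (1.32), BTC (0.880) and EPGN (0.0293). The ranges of ERBB2 and AREG overlapped, as did those of AREG and EREG, and all other neighbours were separate. In AdSIRT4 cells the order was EGFR (40.7), ERBB2 (18.5), TGFA (11.5), AREG (10.1), HBEGF (9.79), EREG (7.53), ERBB3 (2.83), EGF (0.917), BTC (0.896) and EPGN (0.0435). There TGFA, AREG, HBEGF and EREG overlapped from neighbour to neighbour, as did EGF and BTC. HBEGF thus ranked below AREG, EREG and TGFA in every AdCtrl sample, and above EREG in AdSIRT4 replicates 1 and 2. It also ranked above AREG in AdSIRT4 replicate 2 (9.72 against 7.65 FPKM). In AdSIRT4 replicate 1 it lay just above TGFA (10.44 against 10.40 FPKM), and in replicate 3 below AREG, EREG and TGFA.

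The members followed the length trend of AdSIRT4 replicate 1 to different degrees. Relative to the mean of replicates 2 and 3, the log2 CPM of replicate 1 was higher by 0.57 for AREG, the shortest member (1.41 kb by the length the tables imply), where the median of the 500 genes nearest in length was 0.57. For HBEGF (2.70 kb) the value was 0.27 with a median of 0.21. For EGFR, the longest member (11.6 kb), it was -1.04 with a median of -0.71, and for EGF (7.23 kb) it was -0.54 with a median of -0.40. EREG and ERBB3, of nearly the same length (5.29 and 5.31 kb), lay at -0.37 and -0.38, where the medians were -0.21 and -0.21. ERBB2, of similar length (5.23 kb), lay at -0.06 with a median of -0.22. BTC (3.05 kb) lay at -0.03 with a median of 0.11, and TGFA (4.72 kb) at -0.08 with a median of -0.14. With the trend removed from each library, the log2 fold changes were 0.76 for HBEGF, -1.002 for AREG and -1.19 for EREG.

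**Figure D4:**
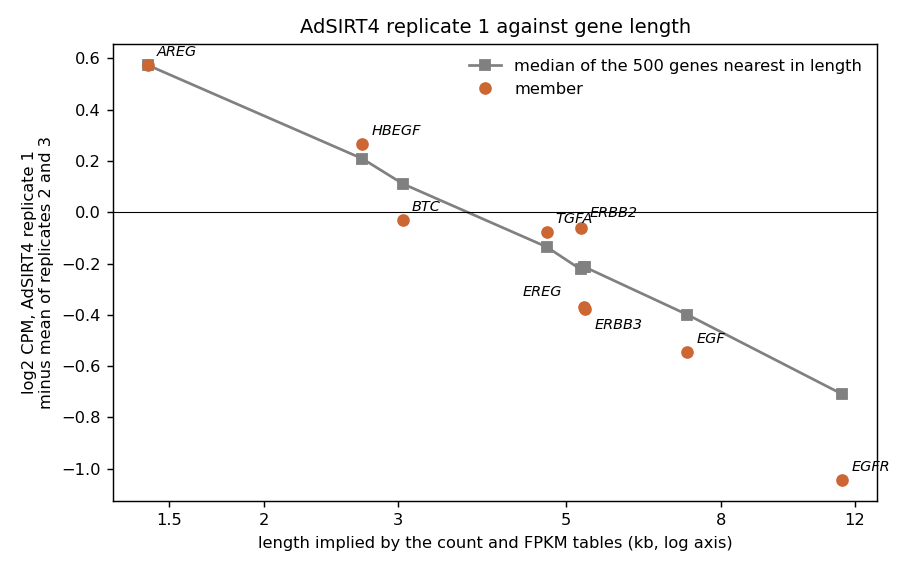
Log2 CPM of AdSIRT4 replicate 1 minus the mean of replicates 2 and 3 against the length implied by the tables (kb, log axis), for the 9 members that passed the filter (circles) and the median of the 500 genes nearest in length to each (squares). AREG sits on the median at 0.57 and EGFR at -1.04 lies below it.

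Other genes of EGF receptor signalling were read from a list of 89 genes, of which 86 had enough counts. None passed the adjusted threshold in edgeR, 11 were higher and 6 lower at an unadjusted p under 0.05 (background 4.43% and 3.5%), and the median log2 fold change was -0.06 where that of all genes tested was 0.02. DESeq2 called 2 of the 86 (DUSP5 and FOSB), against 1.16% of all genes. With the replicate number as a block in edgeR, 10 were higher and 1 lower at an unadjusted p under 0.05, where 723 of all 17720 genes were higher and 553 lower. Without AdSIRT4 replicate 1, 12 of 87 were higher and 3 lower at the adjusted threshold, in a fit that called 6.71% of all genes (617 of 18287 higher and 610 lower).

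Targets that respond to ERK activity held most of the higher genes. The gene lists were chosen with earlier results of these data known, so the counts of this list are a description. Of the 16 targets, 9 were higher at an unadjusted p under 0.05 in edgeR and 0 lower, 8 lay above in all AdSIRT4 samples (9.66% of all genes did), and the median log2 fold change was 0.34. By sign, 14 had a log2 fold change above 0 and 2 below (ETV4 at -0.09 and ETV5 at -0.21). Without AdSIRT4 replicate 1 there were 12 above 0 and 4 below. FOSB, an AP-1 subunit, had 27.5 ± 5.08 and 45.6 ± 5.27 CPM (SD, n = 3; log2 fold change 0.73, adjusted p = 0.494, edgeR). CCND1, which encodes cyclin D1, had 27.3 ± 1.54 and 42.4 ± 9.21 CPM (SD, n = 3; log2 fold change 0.63, adjusted p = 0.494, edgeR). Without AdSIRT4 replicate 1, 8 of the 16 targets passed the adjusted threshold, all higher, where 617 of 18287 genes did so, CCND1 among them (adjusted p = 0.000719, edgeR) and FOSB not (adjusted p = 0.0523). Of 19 negative regulators, 2 were higher and 2 lower at an unadjusted p under 0.05 in edgeR, where 4.43% and 3.5% of all genes were. The lower ones were LRIG1 (log2 fold change -0.40) and PTPN1 (-0.33). The higher ones were DUSP5 and DUSP6, phosphatases that act on ERK. DUSP5 had 38.7, 34.8 and 40.3 CPM in the AdCtrl samples, against 67.3, 62.0 and 59.7 in the AdSIRT4 samples (log2 fold change 0.73, standard error 0.1004, adjusted p = 0.239, edgeR). DUSP6 differed by 0.43 on the log2 scale (standard error 0.129, adjusted p = 0.534, edgeR). Without AdSIRT4 replicate 1, 3 of the 19 negative regulators were higher and 2 lower at the adjusted threshold, where 617 and 610 of 18287 genes were. DUSP5 was among them (adjusted p = 0.000515, edgeR) and DUSP6 was not (adjusted p = 0.0587, edgeR).

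Genes that carry the signal from the receptor had subgroup medians between -0.12 and 0.04. Of 12 genes from RAS to ERK, 0 reached an unadjusted p under 0.05 in edgeR, and those with the smallest p were MAP2K1, the gene of MEK1 (log2 fold change 0.22), and NRAS (0.14). All 7 receptor adaptors had values below 0 with 0 at an unadjusted p under 0.05, SHC1 (-0.31) and SOS1 (-0.14) having the smallest, where 8261 of the 17720 genes tested had values below 0. This sign rested on AdSIRT4 replicate 1, since without it 6 adaptors had values above 0 and 1 below, with SOS1 at 0.07. Of 11 PI3K, AKT and STAT genes, 10 had values below 0 and 2 an unadjusted p under 0.05 (PIK3R2 at -0.30 among them), and without AdSIRT4 replicate 1 there were 7 below 0. Of 9 genes of receptor endocytosis, 0 reached it, with TSG101 at 0.26 and EPS15 at -0.17. Among 10 genes of ligand shedding and processing, 9 had values below 0 and 2 an unadjusted p under 0.05, and without AdSIRT4 replicate 1 there were 8 below 0 and 1 called in edgeR, ADAM12, which was higher. These were NRDC, which encodes nardilysin, a protein that enhances shedding (log2 fold change -0.22), and CD9, a tetraspanin that associates with the HB-EGF precursor (-0.80, at 0.337 to 0.577 mean CPM). With the replicate number as a block, 0 of the 10 shedding genes and 0 of the 11 PI3K, AKT and STAT genes had an unadjusted p under 0.05 in edgeR. Of the neuregulins, NRG1 (-0.14) and NRG4 (0.15) could be tested. Without AdSIRT4 replicate 1 the log2 fold changes were 0.11 for MAP2K1, 0.10 for NRAS, -0.19 for SHC1 and -0.20 for PIK3R2. In that fit TSG101 had 0.15, EPS15 -0.09, NRG1 -0.03 and NRG4 0.25. DESeq2 called none of the genes in these 6 subgroups.

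**Figure D5:**
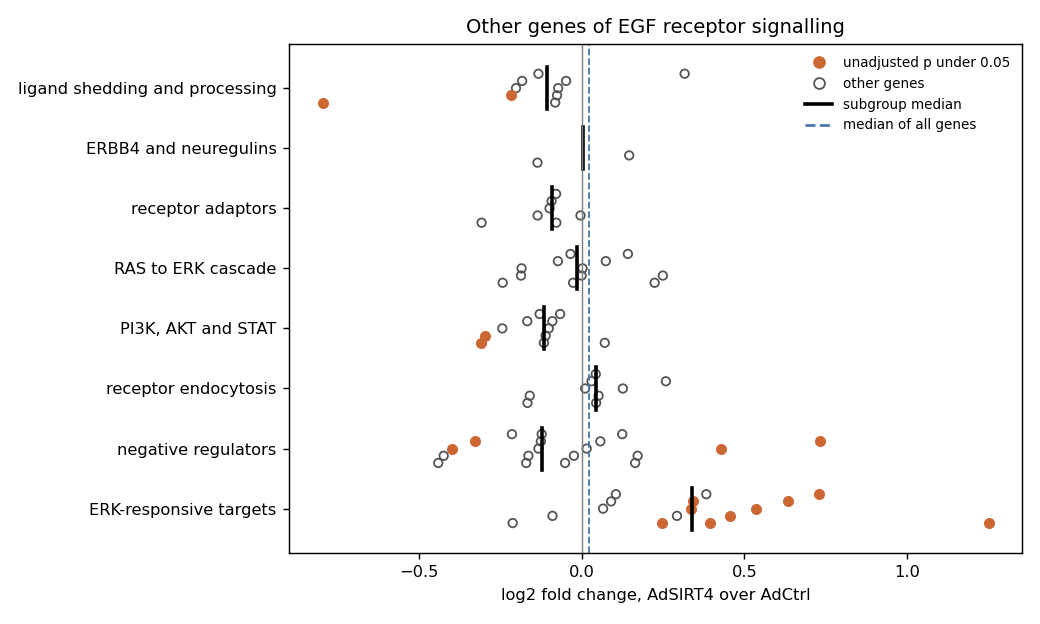
Log2 fold change of AdSIRT4 over AdCtrl for the 86 tested genes of EGF receptor signalling in 8 subgroups, with filled points for an unadjusted p under 0.05 in edgeR, bars for subgroup medians and a dashed line for the median of all genes. The ERK-responsive targets have a median of 0.34, and the other subgroup medians lie between -0.12 and 0.04.

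Among the genes whose log2 CPM followed HBEGF most closely over the 6 samples, of 10358 genes with a mean of at least 10 CPM, were PNKD (Pearson r = 0.999), DUSP5 (0.990), CDKN2B (0.987) and RIOK1 (0.987). These values describe 6 samples in 2 groups that HBEGF separates, and 281 genes had an r over 0.9. DUSP5 is therefore named both here and as a negative regulator. The other differences were smaller than that of HBEGF, with log2 fold changes of 0.23 for PNKD, 0.29 for CDKN2B (the cell cycle inhibitor p15) and 0.25 for RIOK1.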

How the data were processed

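Poly(A) RNA of 3 AdCtrl and 3 AdSIRT4 samples of HK2 cells was sequenced. The labels number the cell line differently for each sample, while every title names HK2. The study describes n in vitro as technical replicates, although its statistics also speak of independent experiments, so p-values may measure technical spread alone. The table of counts that the authors deposited holds raw whole numbers for 38100 genes. Another deposited table, whose unit is not named, was taken to hold FPKM on the basis of its values. For 11758 of 15894 genes with at least 10 counts in all samples, the length implied by both tables was equal within 5% after each library was scaled by its median. The submitters' processing notes name fastp 0.21.0, HISAT2 2.1.0, StringTie 2.1.5, DESeq2 1.30.1 and hg38. The annotation and strand setting are not given in the sources used here.

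Counts were tested in R 4.3.3 with edgeR 4.0.16 (filterByExpr at a minimum count of 10, TMM, robust quasi-likelihood test, Benjamini-Hochberg adjustment over all 17720 genes tested, threshold 0.05). Single genes were also compared with a two-sided exact permutation test on log2 CPM. Alternatives used DESeq2 1.42.0, RLE, other filters, the replicate number as a block, removal of the length trend, limma 3.58.1 on voom values with sample weights or on log2(FPKM + 1) and log2(FPKM + 0.1), and each sample left out. Fold changes on log2(FPKM + pseudocount) understate low genes. Deviations of same-numbered samples correlated across genes at 0.213, 0.142 and 0.156, and those of other pairs lay between -0.18 and 0.04, so the numbers were taken to pair the samples. The main edgeR fit, DESeq2, limma and the permutation tests did not use this pairing, and only the fits with a replicate block did. Replicates differed by more than counting noise (chi-square per gene between 10.1 and 233). The procedure was tested on simulated data in which no library deviated by gene length, so that test does not cover a library like AdSIRT4 replicate 1. Tables and figures were made with Python 3.11.15. Limits from a count of 0 cover counting error alone.

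The members and the gene lists, written from general knowledge, were chosen with earlier results of these data known. Named were all members, SIRT4, in each subgroup the genes past the adjusted threshold (up to 4) or else the 2 with the smallest p, and the 5 genes most like HBEGF. Some genes that this rule names are not reported here. LOC107986229, LOC124900716, EGFR-AS1, ADAM12, LRIG1, PTPN1, ETV4 and ETV5 were named after their values were seen. Promoter windows are from RefSeq (GRCh38.p14) and gene strands from GENCODE v29.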

Additional observations from a re-analysis of the deposited data

How the results depend on the processing

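HBEGF was higher in AdSIRT4 cells under all 17 alternatives (log2 fold change 0.68 to 0.88), and EREG (-1.47 to -1.08) and AREG (-1.17 to -0.68) were lower under the same 17. Their adjusted p ran from 9.31e-05 to 0.971 for EREG and from 0.000787 to 0.971 for AREG (edgeR, DESeq2 and limma). All 17 alternatives reuse the same samples, in which the groups of HBEGF, EREG and AREG did not overlap. The shared sign is therefore no independent evidence, and HBEGF chose the family. Of the members other than HBEGF, 0 were called with all samples in edgeR, 2 with DESeq2, 3 with voom and sample weights (AREG, EREG and EGF), 1 with the length trend removed and a replicate block (EREG), and 0 to 2 with each sample left out. Of the other pathway genes, 0 were called in edgeR, 2 with DESeq2, 1 with the length trend removed (DUSP5), 16 with sample weights, and 0 to 15 with each sample left out. Over all genes, edgeR called 2, DESeq2 206, the fit of all genes with a count 5, the filter of 10 counts in each sample 4, the fit with the length trend removed 12, sample weights 1446, and each of the 3 limma fits on FPKM 5. Leaving out each sample gave 0 to 1227, the highest without AdSIRT4 replicate 1. A block on the replicate number left 1 gene called, and this pairing changed no call of a member in the counts as deposited. With the length trend removed it changed that of EREG (adjusted p = 0.0860 without the block and 0.0366 with it, edgeR).

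Leaving out each sample gave -0.22 to 0.22 for EGFR and -0.011 to 0.094 for TGFA. The sign of EGFR turned without AdSIRT4 replicate 1 (0.22), with the length trend removed (0.063, and 0.054 with the block) and with sample weights (0.20), and that of TGFA without AdCtrl replicate 2 (-0.011). SIRT4 kept a log2 fold change of 6.10 to 6.59 with each sample left out, and its adjusted p in edgeR was 0.0559, 0.203 and 0.186 without AdCtrl replicates 1, 2 and 3. The share of HBEGF among the ligands was higher in AdSIRT4 cells by 13.99 percentage points (13.1 to 15.7 with each sample left out), by 10.9 in raw counts and by 22.6 among HBEGF, AREG and EREG alone, where fewer ligands enter the sum. The cause of the other changes was not tested. EPGN and ERBB4 had too few counts for a test.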
